A study of Mus musculus with 25 samples.

Results

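Metallothioneins and glucocorticoid-responsive genes were followed in the lungs of mice given bleomycin. The 8 genes are the metallothioneins Mt1 and Mt2, the glucocorticoid-induced genes Fkbp5, Tsc22d3, Zbtb16, Sgk1 and Dusp1, and Nr3c1, which encodes the glucocorticoid receptor. They were found by symbol: a probe set (a group of short DNA probes read as 1 intensity) belonged here when the platform annotation gave it 1 of these symbols and no other. This gave 21 of the 45101 probe sets on the array, and 8 of the 18193 genes with a symbol of their own. All 8 were bright enough to be tested among the 12062 genes kept for testing, those brighter than the median of the array in 4 or more of 25 arrays. The lungs came from 25 female mice, 13 wild type (WT) and 12 knockouts (FP-KO) of FP, which is the prostaglandin F2α receptor and the product of Ptgfr. The drug bleomycin, widely used to model lung fibrosis, was placed in the trachea on Day 0 at 1 mg/kg, carried in 40 ul of saline. Lungs of each genotype were taken on Day 0, Day 7 and Day 14, with 4 mice in each of the 6 groups except WT on Day 14, which had 5. The labels call the Day 0 lungs baseline, and strain, age, the hour of collection and the design of the FP-KO allele are not given in the sources used here.

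Metallothioneins are small, cysteine-rich proteins that bind zinc and copper, and their genes are switched on by metal through the factor MTF1 and also by glucocorticoids and by inflammatory signals. Glucocorticoids act through a receptor held in the cytoplasm by chaperones. After binding hormone it enters the nucleus, where it can bind a palindromic DNA element near target genes, and its own transcript is often lowered by hormone. In the lung this pathway restrains inflammation and supports the maturation of the alveolar epithelium.

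Upstream sequences of 3 members are shown because they hold the elements named above, and because Mt1 and Mt2 moved together in these lungs. Each line gives the 250 bases before a transcript start in RefSeq (GRCm38.p6), 5′ to 3′ on the plus strand. Mt1 is at chr8:94178839-94179088, Mt2 at chr8:94172368-94172617 and Sgk1 at chr10:21993640-21993889. In Mt1 and Sgk1 the 13-letter capitals mark the glucocorticoid response element, searched as GNACA, any 3 bases and TGTNC. All 7-letter capitals, in Mt1 and Mt2, mark the core of the metal response element, searched as TGCACNC or TGCGCNC on both strands.
Mt1: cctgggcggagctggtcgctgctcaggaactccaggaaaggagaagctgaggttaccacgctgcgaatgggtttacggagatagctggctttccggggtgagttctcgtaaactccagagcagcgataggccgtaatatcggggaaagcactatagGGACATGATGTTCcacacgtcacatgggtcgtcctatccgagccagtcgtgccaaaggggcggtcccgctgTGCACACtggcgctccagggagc
Mt2: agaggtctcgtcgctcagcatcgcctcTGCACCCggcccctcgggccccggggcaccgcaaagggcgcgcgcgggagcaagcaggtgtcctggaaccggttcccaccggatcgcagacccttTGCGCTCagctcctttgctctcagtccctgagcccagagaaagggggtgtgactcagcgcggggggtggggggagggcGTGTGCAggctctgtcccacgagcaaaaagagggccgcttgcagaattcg
Sgk1: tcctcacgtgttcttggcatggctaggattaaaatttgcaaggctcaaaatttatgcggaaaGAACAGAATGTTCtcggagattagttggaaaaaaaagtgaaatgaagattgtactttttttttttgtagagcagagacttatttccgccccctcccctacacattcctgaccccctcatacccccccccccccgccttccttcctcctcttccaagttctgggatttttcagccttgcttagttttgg

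The starts of Mt2 and Mt1 lie 6471 bases apart on chromosome 8. The Mt2 window held 3 metal response cores, beginning 223, 128 and 50 bases before the start, the last on the minus strand. The Mt1 window held 1, beginning 23 bases before the start. Of 32851 windows of this length in the RefSeq table, 21.4% held at least 1 such core and 1.26% held at least 3. The glucocorticoid palindrome was found once in the Mt1 window, from 94 to 82 bases before the start, and once in 1 of the 6 Sgk1 windows, from 188 to 176 bases before the start. It was found in 0.387% of all windows. The windows of Fkbp5 and Dusp1 (1 each) and of Tsc22d3 (3) held neither motif in these letters. A match is a description of the letters, and the windows depend on the start that RefSeq gives.

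The array measured lung. Transcripts of Sftpc (surfactant protein C of alveolar type 2 cells), Scgb1a1 (club cells), Ager (alveolar type 1 cells) and Cdh5 (endothelium) were present in every group, with Sftpc at 26192 or more in all mice. Ptgfr averaged 304.0 ± 57.5 (SD, n = 4) in WT and 45.7 ± 13.3 (n = 4) in FP-KO lungs on Day 0, a log2 difference of -2.86 ± 0.24 (SE; limma, adjusted p = 1.56e-07). In a principal component analysis of all tested genes, component 1 held 42.0% of the variance and separated Day 0 from Day 7. FP-KO mouse No. 2 on Day 14 lay at -28.9 on it, within the Day 0 mice (-35.0 to -24.8), while the other 8 Day 14 mice lay between -5.37 and 25.6. Component 2 held 16.9% and split the Day 14 arrays into a set at 27.7 to 30.1 (WT No. 1 to 3, FP-KO No. 1 and 2) and a set at -2.28 to 1.35 (WT No. 4 and 5, FP-KO No. 3 and 4). The labels name no cause for either. Comparisons of the genotypes on Day 14 are given with and without FP-KO No. 2 and within each set.

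**Figure D1:**
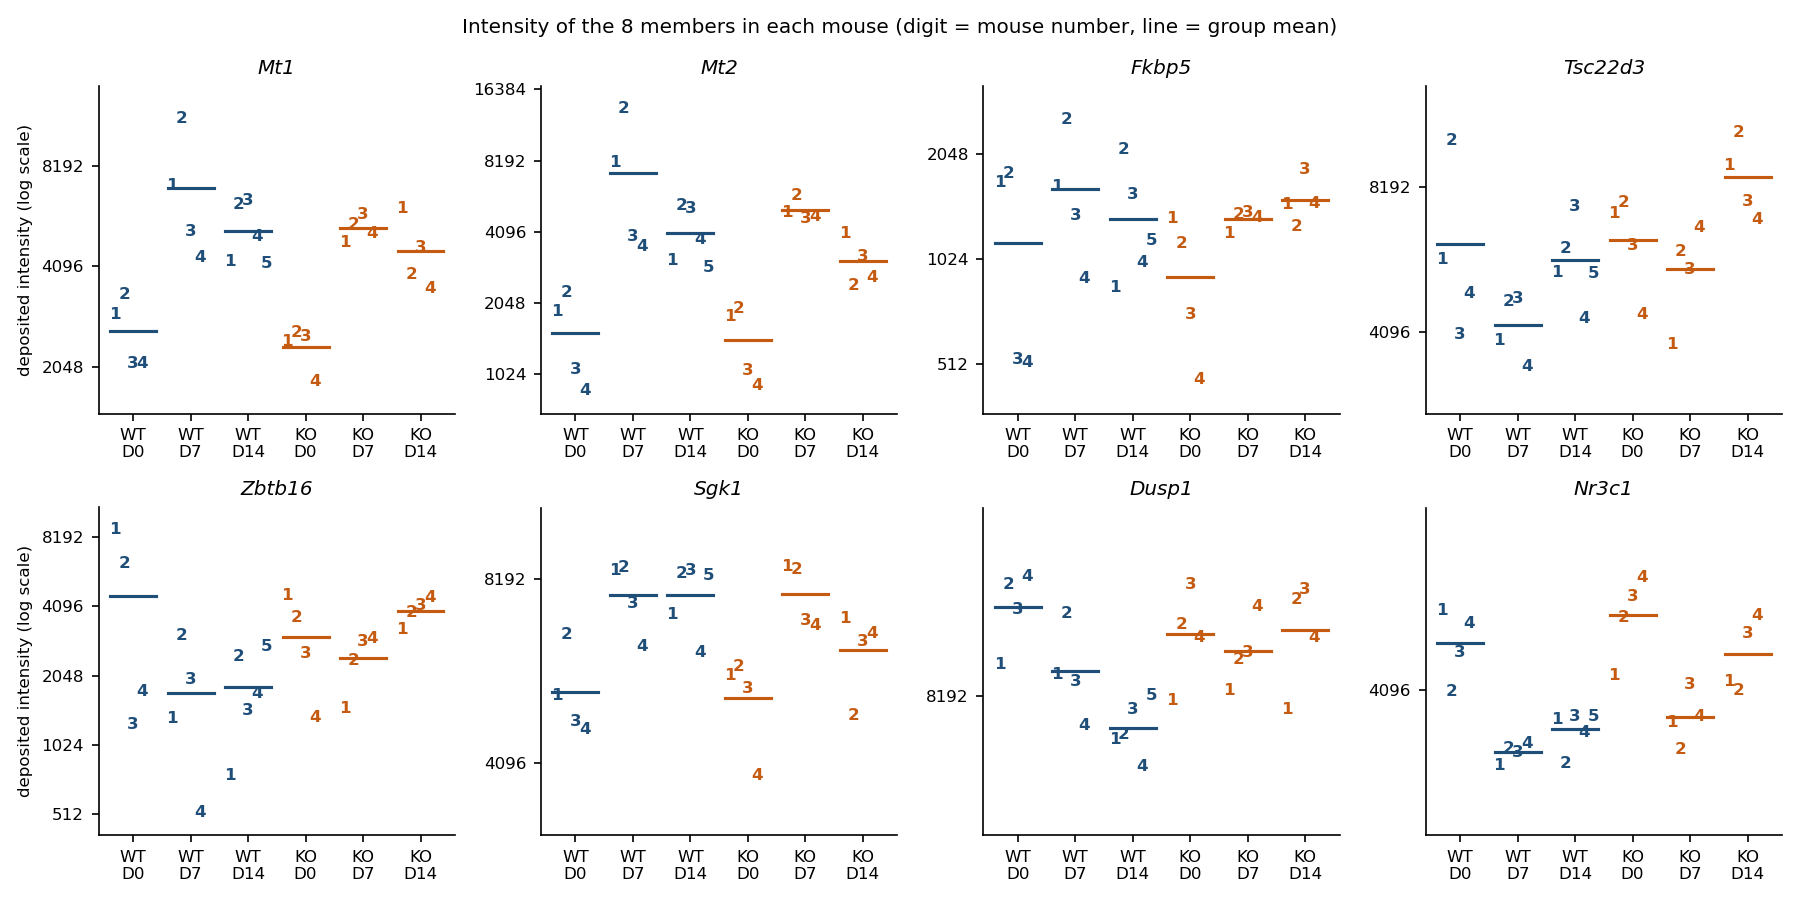
Deposited intensity (log axis, arbitrary units) of each member in every mouse, by group (WT in blue, FP-KO in orange; D0, D7 and D14 are days). Digits are mouse numbers and lines are arithmetic group means; on Day 0 the digits 1 and 2 sit above 3 and 4 in both genotypes for Mt2, Fkbp5, Tsc22d3, Zbtb16 and Sgk1, and both metallothioneins are higher on Day 7 than on Day 0 in all mice.

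On Day 7 both metallothioneins were higher than on Day 0 in either genotype, Sgk1 was higher, and the receptor transcript Nr3c1 was lower. In WT lungs 5 of 8 members passed (Mt1, Mt2 and Sgk1 up, Nr3c1 and Dusp1 down), beside 35.1% of all tested genes. In FP-KO lungs 4 of 8 passed (Mt1, Mt2 and Sgk1 up, Nr3c1 down), beside 23.3%. A gene passed, rose or fell at a Benjamini-Hochberg adjusted p under 0.05 from limma over the 12062 genes, and changes are log2 differences of normalized intensity ± SE. The median change over the members was 0.07 in WT and 0.15 in FP-KO lungs, and over all genes -0.01 and 0.00. Markers of other cells moved over the same days: of 9 macrophage markers 8 rose in WT and 7 in FP-KO lungs (medians 1.84 and 1.45), and of 8 endothelial markers 5 fell in either genotype (medians -0.59 and -0.70). Summed macrophage intensity was 36933 to 46678 and then 56520.5 to 72513.5 in WT mice, and 42786 to 46597 and then 52979 to 61743 in FP-KO mice. Summed endothelial intensity was 34859 to 37669.8 and then 25271 to 27373 in WT, and 34543.5 to 39229 and then 24813 to 31179.9 in FP-KO mice. The Actb 3′ to 5′ ratio, a sign of RNA degradation, lay between 1.31 and 1.62 in Day 0 mice and between 1.18 and 1.35 in Day 7 mice. The part of these in the members' changes was not tested. In whole lung, a change in the number of cells of a type and a change in RNA per cell cannot be told apart.

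Mt1 read 2932, 3387, 2093 and 2093 in the 4 WT mice on Day 0 and 7148, 11401, 5219.7 and 4351 on Day 7. In FP-KO mice it read 2445, 2593, 2531 and 1855 on Day 0 and 4835, 5486, 5886 and 5145 on Day 7. All Day 7 mice were above all Day 0 mice of their genotype, and WT mouse No. 2 was the highest of all. Mt1 rose by 1.32 ± 0.23 in WT (adjusted p = 9.46e-05), which is 2.50-fold, and by 1.13 ± 0.23 in FP-KO lungs (adjusted p = 0.00109), which is 2.19-fold. On Day 14 the 5 WT mice read 4242, 6272, 6462, 5041 and 4183, again above every Day 0 mouse, and the rise from Day 0 was 1.05 ± 0.21 (adjusted p = 0.000552). The 4 FP-KO mice read 6126, 3881, 4664 and 3512 on Day 14, a rise of 0.96 ± 0.23 (adjusted p = 0.0211), and Mt1 was the only member of 8 that passed there, beside 3.26% of all genes. That call was lost without FP-KO Day 14 No. 1 (0.79, adjusted p = 0.101) or Day 0 No. 4 (0.85, adjusted p = 0.0698), and its direction was kept.

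Mt2, the neighbouring metallothionein gene, moved further. In WT mice it read 1879, 2272, 1071 and 875 on Day 0 and 8055, 13526.5, 3926 and 3567 on Day 7. In FP-KO mice it read 1806, 1941, 1062 and 923 on Day 0 and 4946, 5803, 4666 and 4776 on Day 7. The WT Day 7 mice split widely, No. 1 and 2 far above No. 3 and 4, while the FP-KO Day 7 mice lay close together and inside the WT range. The rise was 2.13 ± 0.35 in WT (4.37-fold, adjusted p = 6.2e-05) and 1.83 ± 0.35 in FP-KO lungs (3.57-fold, adjusted p = 0.000723), with no overlap between days. On Day 14 the WT mice read 3087, 5282, 5156, 3791 and 2891 and had risen by 1.51 ± 0.33 from Day 0 (adjusted p = 0.00106). With the low set of Day 14 arrays only, that call was lost (1.24, adjusted p = 0.056). The FP-KO mice read 4021, 2438, 3216 and 2636, all above their Day 0 mice, with a difference of 1.18 ± 0.35 that did not pass (adjusted p = 0.0619). With the mouse number as a replicate block it passed (adjusted p = 0.0208).

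No genotype difference passed for either metallothionein. FP-KO minus WT was -0.12 ± 0.23 for Mt1 and -0.04 ± 0.35 for Mt2 on Day 0, -0.31 ± 0.23 and -0.33 ± 0.35 on Day 7, and -0.21 ± 0.21 and -0.37 ± 0.33 on Day 14 (limma, smallest adjusted p 0.532). Mt3 and Mt4, the brain and epithelial metallothioneins, are on the array but lay above the array median in 0 of 25 arrays, with highest intensities of 80.8 and 49.6, and were not tested. The brighter Mt1 probe set is of a kind whose probes can match more than 1 transcript, so a share of Mt2 signal in it was not tested. The dimmer Mt1 probe set (mean intensity 68.8) gave 1.52 ± 0.37 in WT and 1.31 ± 0.37 in FP-KO lungs on Day 7, the same direction.

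Fkbp5, a cochaperone that holds the receptor in a state of low affinity and is itself induced by it, varied widely between Day 0 mice, with an SD of 1.01 in WT and 0.71 in FP-KO lungs on the log2 scale. It read 1705, 1799.8, 528 and 517 in WT and 1336, 1139, 709 and 462 in FP-KO mice on Day 0. On Day 7 it read 1660.3, 2574, 1368 and 904 in WT and 1215, 1376, 1391 and 1350.2 in FP-KO mice. Mice No. 1 and 2 were the high pair on Day 0 in both genotypes, and Day 7 values overlapped them. The Day 7 difference was 0.70 ± 0.40 in WT (adjusted p = 0.175) and 0.69 ± 0.40 in FP-KO lungs (adjusted p = 0.216), and neither passed. With array weights the WT difference passed (adjusted p = 0.0418). Day 14 means were 1338 ± 509 (SD, n = 5) in WT and 1516 ± 241 (n = 4) in FP-KO lungs, differences from Day 0 of 0.43 ± 0.38 and 0.84 ± 0.40 that did not pass (adjusted p = 0.385 and 0.25).

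Zbtb16, the zinc finger transcription factor PLZF, had an SD of 1.35 on the log2 scale in WT lungs on Day 0, the largest of the 8 genes in any group. It read 8793, 6283, 1261.5 and 1742 in WT and 4540.3, 3661.5, 2565 and 1341.5 in FP-KO mice on Day 0, with No. 1 and 2 above No. 3 and 4 in both genotypes. On Day 7 it read 1338, 3062, 1961 and 520.5 in WT and 1476, 2388, 2889.8 and 2977 in FP-KO mice. The Day 7 difference in WT lungs, -1.19 ± 0.56, did not pass (adjusted p = 0.0996), and it passed without WT Day 0 No. 3 (-1.65, adjusted p = 0.0264) or WT Day 7 No. 2 (-1.55, adjusted p = 0.0472). On Day 14 the WT difference from Day 0 was -0.99 ± 0.53 (adjusted p = 0.142), or -1.45 (adjusted p = 0.0385) without WT Day 0 No. 3. Zbtb16 read 752, 2473, 1449.9, 1714 and 2750.3 in WT and 3242, 3839.9, 4126 and 4467 in FP-KO mice. All 4 FP-KO mice were above all 5 WT mice, yet the difference of 1.27 ± 0.53 did not pass over all genes (adjusted p = 0.125) and the interaction with time was 1.51 ± 0.77 (adjusted p = 0.299). With array weights the genotype difference passed (adjusted p = 0.0437).

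Tsc22d3 encodes GILZ, a leucine zipper protein that mediates anti-inflammatory effects of glucocorticoids. It read 5804, 10236, 4044 and 4926 in WT mice on Day 0, 3947, 4748, 4800.3 and 3476 on Day 7, and 5458, 6106, 7475, 4368 and 5429 on Day 14. In FP-KO mice it read 7222.5, 7613, 6186 and 4456, then 3857, 6015, 5515 and 6738, then 9076, 10597.5, 7654.5 and 7001. The 4 FP-KO Day 14 mice were all above the 4 FP-KO Day 7 mice, and mouse No. 2, the array that lay with Day 0, was the highest. From Day 7 to Day 14 Tsc22d3 rose by 0.71 ± 0.23 in FP-KO lungs (adjusted p = 0.0276). Nr3c1 was the other of the 2 members of 8 that rose in that comparison, in which 22.7% of all genes passed, or 8.85% without FP-KO Day 14 No. 2. The Tsc22d3 call was lost without FP-KO Day 14 No. 2 (0.60, adjusted p = 0.117) or No. 1 (0.66, adjusted p = 0.0683), or Day 7 No. 1 (0.56, adjusted p = 0.11) or No. 2 (0.74, adjusted p = 0.0575). In WT lungs 0 of 8 members passed between Day 7 and Day 14 by limma (1 at an unadjusted p under 0.05), beside 5.94% of all genes. Tsc22d3 differed there by 0.48 ± 0.21 (adjusted p = 0.16), and from Day 0 to Day 7 by -0.50 ± 0.23 (adjusted p = 0.0879), or by -0.66 (adjusted p = 0.0353) without WT Day 0 No. 3.

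Sgk1, a kinase that regulates epithelial sodium channels, read 5296, 6656, 4788 and 4653.5 in WT mice on Day 0 and 8484, 8564, 7470.5 and 6368 on Day 7. In FP-KO mice it read 5694, 5888, 5434 and 3906 on Day 0 and 8592, 8509, 7022 and 6882 on Day 7. Only WT Day 7 No. 4 fell inside the Day 0 range of its genotype. Sgk1 rose by 0.50 ± 0.14 in WT (adjusted p = 0.00612) and by 0.50 ± 0.14 in FP-KO lungs (adjusted p = 0.0111), the latter lost without FP-KO Day 0 No. 4 (0.37, adjusted p = 0.0512). On Day 14 it read 7177.5, 8381, 8484, 6221 and 8297 in WT mice, with No. 4 inside the Day 0 range. The rise from Day 0 was 0.57 ± 0.13 (adjusted p = 0.00145), and its call was lost with the low set of Day 14 arrays only (0.43, adjusted p = 0.0629). The FP-KO mice read 7069.7, 4908, 6474 and 6679, with No. 2 inside the Day 0 range, and the difference of 0.28 ± 0.14 did not pass (adjusted p = 0.256).

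Dusp1, a phosphatase that switches off stress-activated MAP kinases, fell in WT lungs after bleomycin. It read 9066, 11739.6, 10841 and 12049 in WT mice on Day 0, 8772, 10700.2, 8573.5 and 7438 on Day 7, and 7111, 7218, 7836, 6520.3 and 8193 on Day 14. All 5 Day 14 mice were below all 4 Day 0 mice. Dusp1 fell by 0.55 on the log2 scale by Day 14 (SE 0.13, adjusted p = 0.00145), where 5 of 8 members passed (the same genes and directions as on Day 7) beside 38.7% of all genes. Its Day 7 change of -0.36 ± 0.13 (adjusted p = 0.0364) was lost when any 1 of 6 mice was left out (Day 0 No. 2, 3 or 4, Day 7 No. 1, 3 or 4; adjusted p up to 0.117) and on the values as deposited (-0.30, adjusted p = 0.089). FP-KO mice read 8058, 10301, 11724 and 9876 on Day 0 and 7833, 11193, 11560.3 and 9899 on Day 14 (-0.01 ± 0.13, adjusted p = 0.984). The interaction of genotype and time on Day 14 was 0.54 ± 0.18 and did not pass (adjusted p = 0.0923). It passed without FP-KO Day 14 No. 1 (0.64, adjusted p = 0.0432).

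Nr3c1, the receptor, read 5281, 4075, 4609 and 5051 in WT mice on Day 0 and 3218, 3393, 3347 and 3454 on Day 7, a narrow and lower band. It read 4283, 5150.5, 5509 and 5863 in FP-KO mice on Day 0 and 3690.1, 3388, 4162 and 3755.5 on Day 7, again with no overlap. It fell by 0.52 in WT (SE 0.11, adjusted p = 0.00083) and by 0.53 in FP-KO lungs (SE 0.11, adjusted p = 0.00165). On Day 14 the WT mice read 3721, 3236, 3757, 3577 and 3759, still below every Day 0 mouse (-0.39 ± 0.11, adjusted p = 0.00529). With the low set of Day 14 arrays only, this WT call was lost (-0.39, adjusted p = 0.0571). The FP-KO mice read 4197, 4088, 4904 and 5188, No. 3 and 4 inside the Day 0 range and No. 1 and 2 just below it (-0.17 ± 0.11, adjusted p = 0.409) and higher than on Day 7 by 0.36 ± 0.11 (adjusted p = 0.0255). That last call was lost without FP-KO Day 7 No. 1 (0.35, adjusted p = 0.0592) or No. 2 (0.29, adjusted p = 0.102) or Day 14 No. 4 (0.30, adjusted p = 0.0617).

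**Figure D2:**
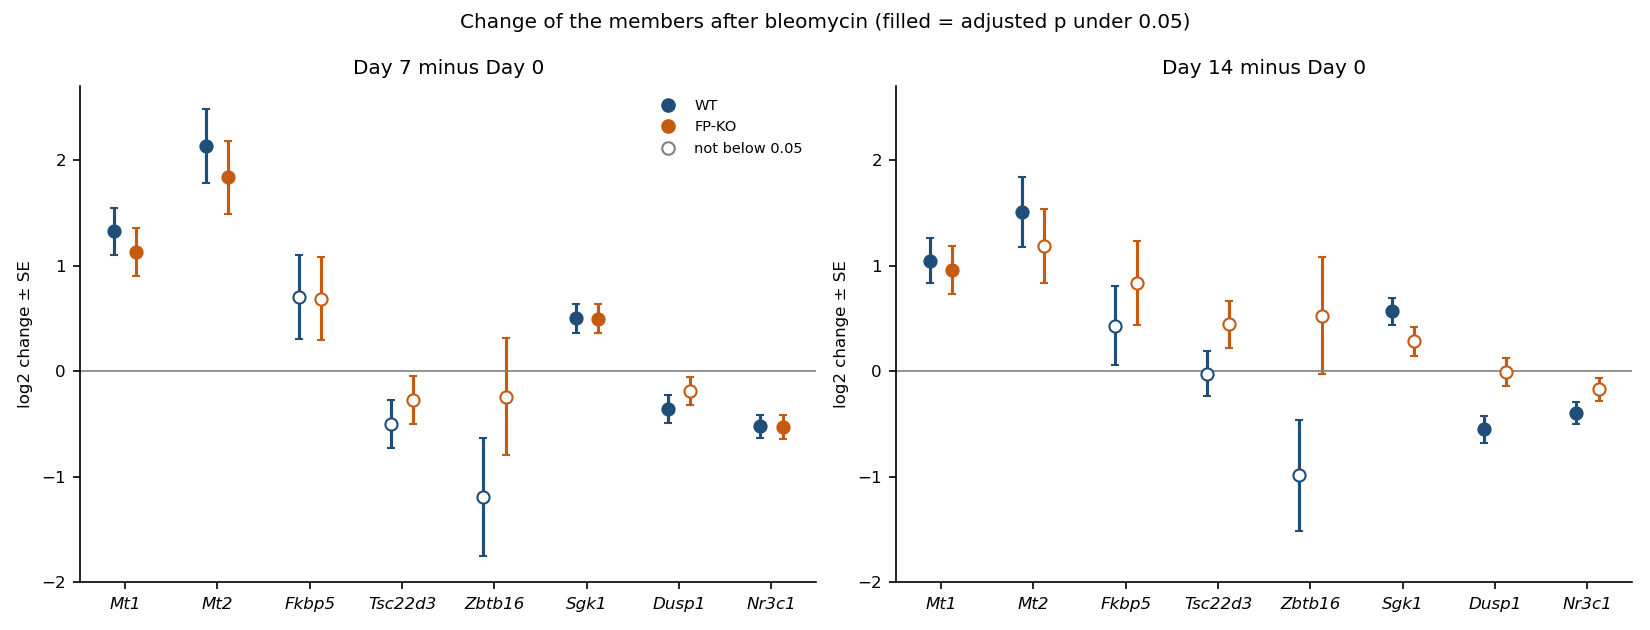
Log2 change of each member from Day 0 to Day 7 (left) and from Day 0 to Day 14 (right), with bars of 1 SE from limma, WT in blue and FP-KO in orange. Filled points passed at an adjusted p under 0.05 and open points did not; Mt1 and Mt2 lie highest in both panels, and on Day 14 Mt1 is the only filled FP-KO point.

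FP-KO and WT lungs were compared on each day, which is what the series was designed for. On Day 0 and on Day 7, 0 of 8 members passed by limma (0 at an unadjusted p under 0.05 on either day), beside 0.0166% of all genes on Day 0 and 0.0166% on Day 7. On Day 14, 2 of 8 members were higher in FP-KO lungs, beside 10.5% of all genes: Dusp1 by 0.41 ± 0.13 (adjusted p = 0.0396) and Nr3c1 by 0.36 ± 0.11 (adjusted p = 0.0308). For Nr3c1 all 4 FP-KO mice were above all 5 WT mice, and for Dusp1 all but FP-KO No. 1 were. The interaction of genotype and time passed by limma for 0 of 8 members on Day 7 (0 at an unadjusted p under 0.05), beside 0% of all genes, of which 765 had an unadjusted p under 0.05. On Day 14 it passed for 0 of 8 (1 at an unadjusted p under 0.05), beside 3.12%.

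Both Day 14 genotype differences lay near the threshold. Their size held when any 1 mouse of the day was left out, at 0.34 to 0.50 for Dusp1 and 0.31 to 0.39 for Nr3c1, but the call often did not. Without FP-KO Day 14 No. 2, 0 of 8 members passed, beside 3.25% of all genes, with Dusp1 at 0.34 (adjusted p = 0.166) and Nr3c1 at 0.39 (adjusted p = 0.0597). The Dusp1 call was also lost without FP-KO No. 3 or 4 or WT No. 1, 2, 3 or 4 of that day (adjusted p 0.0537 to 0.104). The Nr3c1 call was also lost without FP-KO No. 3 or 4 or WT No. 2 or 4 (adjusted p 0.0548 to 0.0881). It was lost as well with the mean of its probe sets (0.25, adjusted p = 0.226). Within the high set of Day 14 arrays Dusp1 was 0.33 and Nr3c1 0.26 higher in FP-KO lungs, and within the low set 0.49 and 0.46. None of these passed, beside 9.51% of all genes in the high set and 0.0166% in the low set. Every one pointed the same way. The sets divide the arrays in which both genes were called, so that direction is no separate support. With the set as a block both passed, and so did Tsc22d3 (0.61, adjusted p = 0.0408).

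Other transcripts moved with the Day 14 genotype difference. Of 7 heart muscle markers 6 were higher in FP-KO lungs and 0 lower, with a summed intensity of 13144 to 23433 in FP-KO and 9367 to 11557 in WT mice. Of 4 ciliated cell markers 3 were higher (9320 to 11064 against 6244 to 7493), and of 4 adipocyte markers 2 were higher (1184 to 2696 against 620 to 1127). Of 9 macrophage markers 6 were lower in FP-KO lungs (48114 to 57470 against 52605 to 58526) and 0 higher. Without FP-KO No. 2, 2 of 7 heart muscle, 1 of 4 ciliated and 0 of 4 adipocyte markers were higher and 3 of 9 macrophage markers lower. Within the high set these counts were 7, 1, 0 and 6, and within the low set 0 for each. The ratio of Actb signal at the 3′ end to that at the 5′ end, which rises as RNA degrades, was 1.38 to 1.56 in FP-KO and 1.21 to 1.40 in WT mice on Day 14, highest in FP-KO No. 2. That array also had the highest 18S ribosomal RNA signal of the day, 6339 against 191 to 2152 in the others. The part of all these in the Dusp1 and Nr3c1 differences was not tested.

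The 21 probe sets allow the members to be checked against themselves. For Zbtb16 all 3 probe sets were lower on Day 7 in WT lungs (-1.19 ± 0.59, -1.21 ± 0.48 and -0.47 ± 0.44) and higher in FP-KO than in WT lungs on Day 14 (1.27 ± 0.56, 1.02 ± 0.45 and 0.81 ± 0.42). For Nr3c1, 4 of the 5 probe sets above the array median were lower on Day 7 in WT lungs (-0.52 ± 0.11, -0.37 ± 0.19, -0.75 ± 0.19 and -0.56 ± 0.11), and the dimmest of the 5 gave -0.04 ± 0.32. In FP-KO lungs they were less even on Day 7, at -0.53 ± 0.11, -0.18 ± 0.19, -0.15 ± 0.19, -0.41 ± 0.11 and 0.02 ± 0.32, and the sixth, at a mean intensity of 30.9 and at the floor in 8 arrays, gave 0.54 ± 0.28. With the mean of all 6 in place of the brightest the change was -0.12 and did not pass (adjusted p = 0.55). The change from Day 7 to Day 14 did not pass with that mean either (0.17, adjusted p = 0.377). In the 5 above the median, in the same order, it was 0.36 ± 0.11, 0.27 ± 0.19, -0.24 ± 0.19, 0.27 ± 0.11 and 0.17 ± 0.32. The third thus went the other way. FP-KO minus WT on Day 14 was 0.36 ± 0.10, 0.23 ± 0.18, 0.34 ± 0.18, 0.27 ± 0.11 and 0.02 ± 0.30 in the 5 probe sets above the median. With the mean of all 6 it was 0.25 and did not pass (adjusted p = 0.226). For Tsc22d3 the rise from Day 7 to Day 14 in FP-KO lungs was 0.71 ± 0.24 and 0.66 ± 0.25 in the brighter pair of probe sets and -0.22 ± 0.19 in the third, and with the mean of all probe sets it was 0.24 and did not pass (adjusted p = 0.272). The brighter pair gave 0.57 ± 0.22 and 0.59 ± 0.24 for FP-KO minus WT on Day 14, and the third, at a mean intensity of 300.0, gave 0.03 ± 0.18. Both Fkbp5 probe sets above the median were higher on Day 7 in WT (0.70 ± 0.42 and 0.89 ± 0.40), and the remaining one sat at the floor in 21 of 25 arrays. From Day 0 to Day 14 the former gave 0.43 ± 0.40 and 0.95 ± 0.38 in WT, and 0.84 ± 0.42 and 0.76 ± 0.40 in FP-KO lungs. For FP-KO minus WT on Day 14 they gave 0.25 ± 0.40 and -0.06 ± 0.38.

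**Figure D3:**
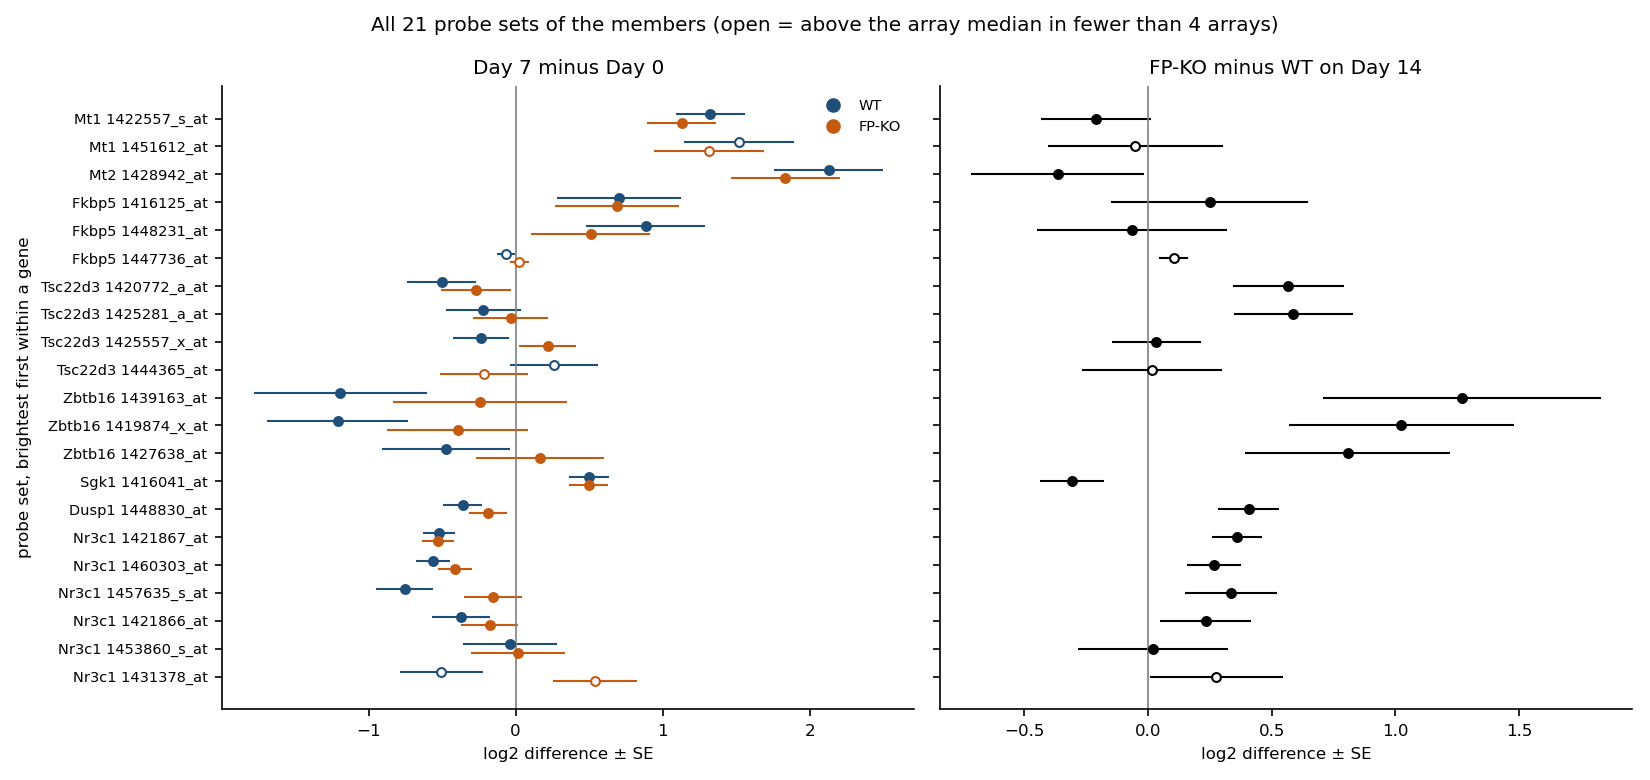
Log2 difference with bars of 1 SE for each of the 21 probe sets of the members, brightest first within a gene: Day 7 minus Day 0 in WT (blue) and FP-KO (orange) on the left, FP-KO minus WT on Day 14 (black) on the right. Open points are probe sets above the array median in fewer than 4 arrays; the 3 Zbtb16 probe sets lie on 1 side of 0 in WT on Day 7 and on Day 14.

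Within groups, Mt1, Mt2, Fkbp5, Tsc22d3, Zbtb16 and Sgk1 correlated positively in every pair. After each group mean was taken away, the log2 values of Fkbp5 and Zbtb16 correlated at r = 0.862 (Spearman's rho 0.761) over the 25 mice, Mt2 and Fkbp5 at 0.854 (rho 0.865) and Mt1 and Mt2 at 0.896 (rho 0.861). Without the 2 mice farthest from the median of the first gene of each pair, r was 0.851, 0.835 and 0.845. Mt2 and Sgk1 gave 0.655 (rho 0.724), and Fkbp5 and Tsc22d3 gave 0.612 (rho 0.542). Nr3c1 ran the other way, at -0.482 with Fkbp5 (rho -0.357), -0.487 with Mt2 (rho -0.505) and -0.491 with Tsc22d3 (rho -0.399). Dusp1 gave r between -0.169 and 0.161 with the metallothioneins and the other targets. These 28 pairs share arrays, normalization and group sizes of 4 or 5, and r is given as a description with no p.

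**Figure D4:**
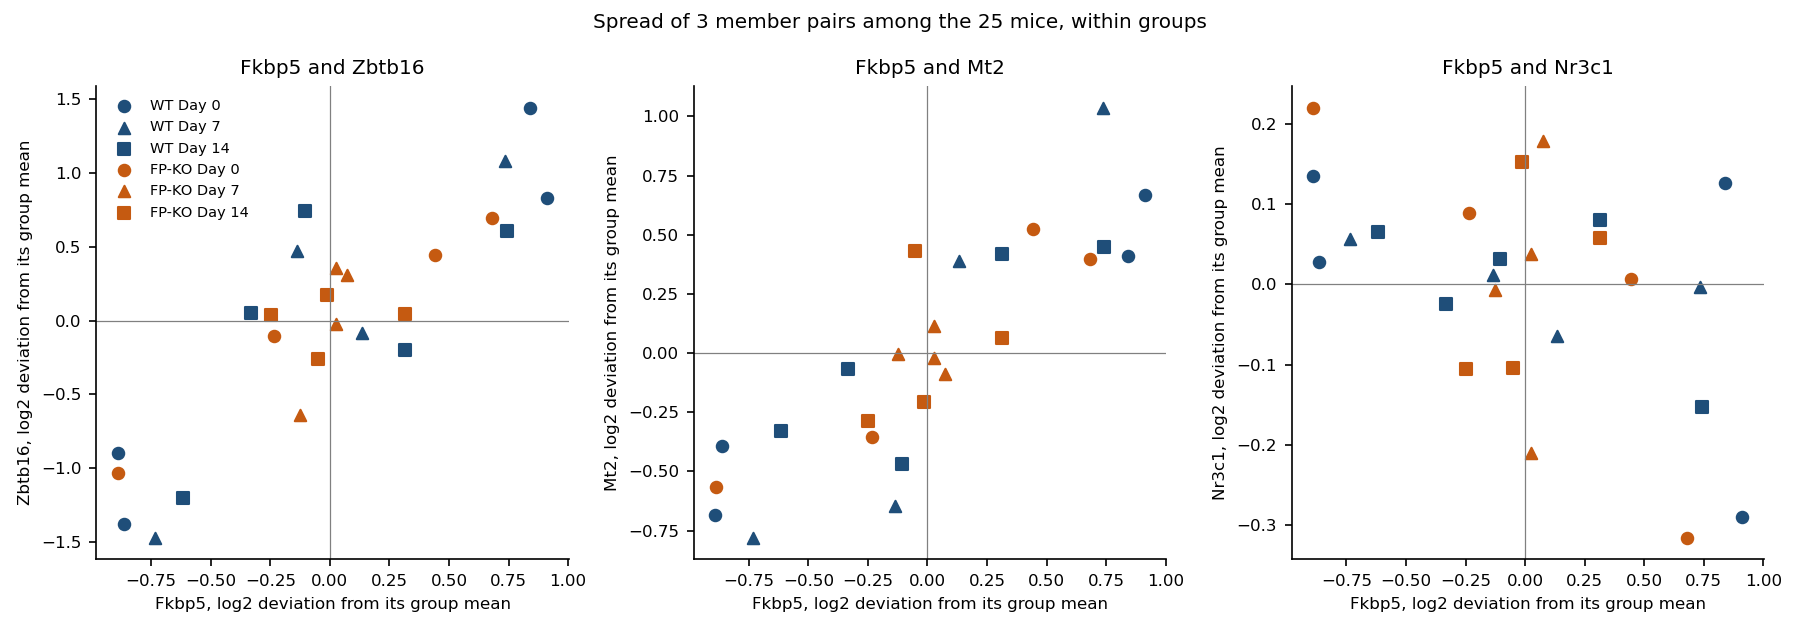
Log2 deviation of Zbtb16 (left), Mt2 (middle) and Nr3c1 (right) from its group mean against that of Fkbp5 in the same mouse, 25 mice (WT blue, FP-KO orange; circles Day 0, triangles Day 7, squares Day 14). Zbtb16 and Mt2 rise with Fkbp5 (r = 0.862 and 0.854), with Day 0 mice at both ends, and Nr3c1 goes down (r = -0.482).

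The Day 0 mice fell into the same pairs for many of these genes. In both genotypes, mice No. 1 and 2 were above No. 3 and 4 for 5 of 8 members (Mt2, Fkbp5, Tsc22d3, Zbtb16 and Sgk1, on the normalized scale), beside 10.3% of all tested genes, and below for 0 of 8, beside 5.65%. Of 22 tested genes in a list of other glucocorticoid targets 9 were above in this way and 0 below, among them Klf15, a Krüppel-like factor, which read 1848 and 1975 in WT No. 1 and 2, 804 and 1005 in No. 3 and 4, and 1680.0, 1319.8, 1129 and 954 in FP-KO mice. Of 17 metal handling genes 5 were above and 0 below, among them the zinc exporter Slc30a1, which read 3122, 3312, 2332 and 2284 in WT and 3048, 2775, 2481.5 and 2227 in FP-KO mice. Of 14 clock genes 1 was above and 1 below, and of 17 immediate-early genes 1 was above and 4 below. Adipocyte markers were above in 2 of 4, with a summed intensity from 2117 to 5930.2 in WT Day 0 mice, and their part in this was not tested. The split by number was seen in the values first, so it has no test, and the labels do not say what mice of a number share. The 18S ribosomal RNA signal on Day 0 read 2869.8, 474, 285 and 209 in WT mice, in the order of the same split, and 6648, 485, 2140.2 and 309 in FP-KO mice, where No. 3 was above No. 2.

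On Day 7 the pairing by number looked different. On the normalized scale Mt2 and Sgk1 were the members above and Nr3c1 the member below in No. 1 and 2 of both genotypes. Of all genes 11.7% were above and 8.91% below in this way. As deposited, Nr3c1 in WT read 3393 in No. 2 and 3347 in No. 3, so its order held only after normalization. Of the other glucocorticoid targets 2 of 22 were above and 2 below, and of the clock genes 8 of 14 were below. All 7 heart muscle markers and 5 of 6 alveolar type 2 markers were below in No. 1 and 2. The 18S signal was above, at 316 to 1112 in No. 1 and 2 and 234 to 249 in No. 3 and 4. On Day 14 it was 297 to 6339 in the high set and 191 to 231 in the low set. The part of these signals in the members' values was not tested.

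The Day 7 change was also taken within each pair of numbers, chosen after seeing the data. The pairs were set apart by Day 0 values of these genes, and those values enter each difference. A pair low on Day 0 therefore gives a larger difference unless its Day 7 values are low too, as for Mt2 in WT lungs. The values are given with no test. Mt2 differed by 2.30 in WT and 1.43 in FP-KO lungs in No. 1 and 2, and by 1.95 and 2.24 in No. 3 and 4. Fkbp5 differed by 0.26 and 0.08 in No. 1 and 2, and by 1.15 and 1.30 in No. 3 and 4. Zbtb16 differed by -1.83 and -1.14 in No. 1 and 2, and by -0.56 and 0.66 in No. 3 and 4. Each pair holds 2 mice a group.

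The genes whose intensities ran most like each member over the 25 arrays were taken as the 3 highest Pearson correlations, which carry the shared time course. For Mt1 they were Mt2 (0.965), Clca3a1 (0.931) and Pla1a (0.917), and for Mt2 they were Mt1, the zinc importer Slc39a14 (0.945) and Clca3a1 (0.938). For Sgk1 they were Clca3a1 (0.923), Adamts12 (0.905) and Fcgr3, a receptor of macrophages and other myeloid cells (0.902, and 0.745 within groups). Within groups, where the time course is removed, Slc39a14 still correlated with Mt2 at 0.848 and Clca3a1 at 0.862. For Fkbp5 they were Sema7a (0.864), Kcnk1 (0.851) and Fam72a (0.836), and for Zbtb16 Jdp2 (0.885), Fam107a (0.866) and Jade2 (0.845). Kcnk1 and Fam107a kept 0.89 with Fkbp5 and with Zbtb16 within groups. Tsc22d3 ran most like Efnb1 (0.851), Tecpr2 (0.84) and Prrg3 (0.835), Dusp1 like Kcnj13 (0.852), Ogn (0.799) and Adgrl3 (0.797), and Nr3c1 like Cyyr1 (0.898), Tmem245 (0.896) and Tmem106b (0.88).

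Among metal handling genes the importer Slc39a14 rose in both genotypes, as the metallothioneins did. It read 273, 298, 248 and 249 in WT mice on Day 0 and 1201, 1553, 663 and 763 on Day 7. It rose by 1.90 ± 0.21 in WT (adjusted p = 1.03e-06) and by 1.46 ± 0.21 in FP-KO lungs (adjusted p = 6.23e-05), with every Day 7 mouse above every Day 0 mouse in WT. FP-KO mice read 276, 369.9, 289 and 261 on Day 0 and 844, 756, 897 and 655 on Day 7, also with no overlap. Of 17 tested genes 2 rose and 5 fell in WT lungs on Day 7, near the 35.1% of all genes, with the copper transporter Atp7b (-1.01 ± 0.21, adjusted p = 0.000561) and the importer Slc39a8 (-0.77 ± 0.22, adjusted p = 0.00903) among those that fell. In FP-KO lungs 2 rose and 3 fell, near the 23.3% of all genes, with the copper chaperone Atox1 at 0.56 ± 0.15 (adjusted p = 0.0121) and Slc30a1, the MTF1-induced zinc exporter, at -0.50 ± 0.14 (adjusted p = 0.0153). By Day 14, 4 had risen and 5 fallen in WT lungs (3 and 5 in the high set, 2 and 3 in the low set), beside 38.7% of all genes, with the superoxide dismutase Sod1 at -0.80 ± 0.10 (adjusted p = 3.08e-06), and 0 of 17 passed in FP-KO lungs by limma (3 at an unadjusted p under 0.05). On Day 14 Atp7b (0.83 ± 0.20, adjusted p = 0.00973) and Sod1 (0.34 ± 0.10, adjusted p = 0.0346) were higher in FP-KO than in WT lungs, beside 10.5% of all genes. Neither passed without FP-KO No. 2, 1 of 17 passed within the high set and 0 of 17 within the low set. The median change of the list on Day 7 was 0.07 in WT and -0.13 in FP-KO lungs. Slc30a1 read lower on Day 7 in WT mice as well. It read 3122, 3312, 2332 and 2284 there on Day 0 and 1893, 2026.5, 1948 and 1752 on Day 7.

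Among other glucocorticoid targets more fell than rose after bleomycin in WT lungs. Of 22 tested genes 2 rose and 7 fell on Day 7 (median -0.22), a total near the 35.1% of all genes. On Day 14, 2 rose and 9 fell (median -0.30), beside 38.7% of all genes, with 1 and 8 in the high set of arrays and 1 and 5 in the low set. The largest falls were those of Klf15 (-1.34 ± 0.31 on Day 7, adjusted p = 0.00159), the sulfotransferase Sult1a1 (-0.98 ± 0.26, adjusted p = 0.00506) and Klf9 (-0.85 ± 0.16, adjusted p = 0.000193). Klf9 read 13969, 14789, 9440.3 and 10849 in WT mice on Day 0 and 6991, 5905, 6153, 7669 and 7433 on Day 14, with no overlap. In FP-KO lungs 2 rose and 4 fell on Day 7, beside 23.3% of all genes, with Cebpd at 0.65 ± 0.21 (adjusted p = 0.0268), Per1 at -0.58 ± 0.20 (adjusted p = 0.0355) and annexin A1 (Anxa1) at 0.56 ± 0.15 (adjusted p = 0.00927), and 0 of 22 passed on Day 14 against Day 0 by limma (4 at an unadjusted p under 0.05).

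On Day 14, 5 of these 22 targets were higher in FP-KO than in WT lungs and 0 lower, beside 10.5% of all genes. Klf15 differed by 1.20 ± 0.29 (adjusted p = 0.0116), Klf9 by 0.66 ± 0.15 (adjusted p = 0.00748) and Per1, also a clock gene, by 0.60 ± 0.19 (adjusted p = 0.0402). Klf15 read 919.8, 1713.5, 1544 and 1179.5 in FP-KO mice and 634.5, 528, 632, 469 and 657 in WT mice, with no overlap. The count was 2 of 22 without FP-KO No. 2, beside 3.25% of all genes, 5 of 22 within the high set of arrays, beside 9.51%, and 0 of 22 within the low set, beside 0.0166%. The list has a median of 0.29 in this comparison, and all genes have 0.00.

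Genes that set how much hormone reaches the receptor moved as well. Of 10 tested genes for ligand supply, chaperones and cofactors 3 rose and 5 fell in WT lungs on Day 7, beside 35.1% of all genes. The mineralocorticoid receptor Nr3c2, which binds the same hormone, fell by 1.22 (SE 0.23, adjusted p = 0.000248), the hormone-inactivating enzyme Hsd11b2 rose by 1.20 ± 0.38 (adjusted p = 0.018) and the efflux pump Abcb1a fell by 0.73 (SE 0.14, adjusted p = 0.000407). By Day 14 the hormone-regenerating enzyme Hsd11b1 had fallen by 0.89 in WT lungs (SE 0.13, adjusted p = 1.66e-05). In FP-KO lungs 3 rose and 2 fell on Day 7, beside 23.3% of all genes, with Hsd11b2 at 1.56 ± 0.38 (adjusted p = 0.00556), and 0 of 10 passed on Day 14 against Day 0 by limma (3 at an unadjusted p under 0.05). On Day 14 Nr3c2 (0.89 ± 0.22, adjusted p = 0.012), Hsd11b1 (0.48 ± 0.13, adjusted p = 0.0232) and Abcb1a (0.46 ± 0.14, adjusted p = 0.0338) were higher in FP-KO than in WT lungs, beside 10.5% of all genes. Without FP-KO No. 2, 1 of 10 passed, beside 3.25%, and 1 of 10 passed within the high set and 0 of 10 within the low set.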

How the data were processed

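The authors deposited linear intensity values, 1 for each probe set on each array. The arrays appear to have been scaled, since the mean without the lowest and highest 2% came to 500 when averaged over them. No source used here names the software. Per the labels' protocols, biotin-labelled cRNA was made from 6 ug of lung RNA for Affymetrix arrays. Titles number the mice, so arrays were counted as mice. Nothing in the sources used here says whether mice shared a cage, litter or day. The number of arrays limits the precision.

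Intensities were floored at 24.3 (20th percentile), taken to log2 and quantile-normalized, since array medians spanned 0.432. The brightest probe set stood for a gene. Tests were limma 3.58.1 (R 4.3.3) over 6 group means and 11 contrasts, with no covariate, checked on simulated data. The members, gene lists and most tests were chosen with earlier results of these data known. Named genes were the members, up to 3 of the largest called changes per pathway list and contrast, the 3 genes most like each member, and marker genes. Klf15, Klf9, Slc39a14 and Slc30a1 are given by mouse as examples chosen after their values were seen. Symbols were checked against the RefSeq table (GRCm38.p6), which matched 34741 of 34945 probe sets with 1 symbol and changed 0 symbols.

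As a check of pairing, the deviations of same-numbered WT and FP-KO mice gave correlations from 0.119 to 0.345 on Day 0, from 0.141 to 0.221 on Day 7 and from -0.308 to 0.437 on Day 14. All of these were above 0 on Day 0 and Day 7, and no label states a pairing. Mice of unequal number were not correlated across genotypes, so whether equal numbers go together was not tested. Alternatives were scaling, floor, filter, probe set summary, spread, replicate block, sets of Day 14 arrays and each mouse left out. Subsets by mouse number were added after seeing the data.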

Additional observations from a re-analysis of the deposited data

How the results depend on the processing

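The counts of members that passed held within 1.5 times of 5 in WT and 4 in FP-KO lungs on Day 7 under the changes of scaling, floor, filter, summary and spread, with 4 to 6 and 3 to 4 when 1 mouse was left out. In mice No. 1 and 2 only (an alternative chosen after seeing the data) the FP-KO Day 7 count was 2. WT Day 14 against Day 0 kept 5 to 6 without 1 mouse and gave 2 in the low set of Day 14 arrays only, where Mt2, Sgk1 and Nr3c1 lost their calls. WT Day 14 against Day 7 gave 0 throughout, except 1 (Tsc22d3) with array weights. Counts that rest on FP-KO Day 14 were the least stable. Against Day 0 the count of 1 became 0 with a common median, with only the groups compared, with the set as a block and in the low set, became 2 with array weights and 2 with the replicate block, and ran from 0 to 1 without 1 mouse. Against Day 7 the count of 2 became 0 with a common median, the mean of probe sets, only the groups compared and the low set, became 1 with array weights, the set as a block and the high set, and ran from 0 to 2 without 1 mouse. FP-KO minus WT on Day 14 fell from 2 to 0 with a common median, only the groups compared and within either set, to 1 with no filter and with the mean of probe sets, went up to 3 with array weights and to 3 with the set as a block, and ran from 0 to 2 without 1 mouse. The Day 14 interaction went from 0 to 1 (Dusp1) with array weights and ran from 0 to 1 without 1 mouse.

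Of the 19 called values of single members 13 lost their call under at least 1 alternative, and 10 other values gained one. Over all 2056 values under an alternative these were 67 losses and 15 gains, and none of those called changed sign. The replicate block changed no other count of members by more than 1.5 times. Scaling moved the median of all genes by less than 0.1 in every contrast. With 4 or 5 mice a group, small changes in dim genes could not be resolved.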

Other observations

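Inflammatory transcripts also rose on Day 7. Of 10 tested acute-phase and IL-6 pathway genes 7 rose and 0 fell in WT lungs on Day 7, beside 35.1% of all genes, led by serum amyloid A3 (Saa3, 3.98 ± 0.38, limma, adjusted p = 1.9e-07), Il6 (2.73 ± 0.37, adjusted p = 7.19e-06) and the protease inhibitor Serpina3n (2.42 ± 0.22, adjusted p = 1.13e-07). In FP-KO lungs 6 rose and 0 fell on Day 7, beside 23.3% of all genes, and 6 fell between Day 7 and Day 14, beside 22.7% (Saa3 at -3.01 ± 0.38, adjusted p = 7.95e-05). On Day 14, 4 of 10 were lower in FP-KO than in WT lungs and 0 higher, with Saa3 at -1.59 ± 0.36 (adjusted p = 0.00836), beside 10.5% of all genes. Without FP-KO No. 2, 1 of 10 was lower, beside 3.25%, and 2 were lower within the high set of arrays and 0 within the low set. The list was chosen with earlier results of these data known.

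Of 17 tested immediate-early genes, which respond within minutes to stress, 5 rose and 0 fell in WT lungs on Day 7. That total is near the 35.1% of all genes that passed. Over all 12062 genes 2065 rose and 2171 fell. Myc rose by 1.35 ± 0.17 (adjusted p = 2.89e-06). On Day 14, 4 of 17 were lower in FP-KO than in WT lungs, beside 10.5% of all genes, among them Egr1 (-1.29 ± 0.35, adjusted p = 0.0229), Fos (-0.83 ± 0.25, adjusted p = 0.0319) and Junb (-0.72 ± 0.17, adjusted p = 0.00884). Without FP-KO No. 2, 1 of 17 was lower, within the high set 3 were lower and 2 higher, and within the low set 0 passed. Of 14 clock genes 1 rose and 7 fell in WT lungs on Day 7, and 1 rose and 9 fell in FP-KO lungs, beside 35.1% and 23.3% of all genes, with Nr1d1 at -1.35 ± 0.26 and -1.16 ± 0.26 (adjusted p = 0.000312 and 0.00275).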
